A study of Mus musculus with 42 samples.

Results

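The polycystic kidney disease genes Pkd1, Pkd2, Pkhd1, Bicc1, Dzip1l, Ganab and Glis2 were followed in whole mouse kidneys that lacked Tsc2, Tfeb or both. These 7 genes were taken by gene name from tables of 54532 genes, and all 7 passed the filter on low counts in every cohort. Tsc2 is a subunit of the complex that restrains the growth kinase mTORC1, and Tfeb is a transcription factor that drives lysosomal genes and is held in check by that kinase.

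Cysts in inherited polycystic disease arise from tubule epithelium, and most of the responsible proteins act at or are delivered to the primary cilium, a sensory projection on each tubule cell. Polycystin-1 and polycystin-2, the products of Pkd1 and Pkd2, form the receptor and channel complex mutated in dominant disease, while fibrocystin (Pkhd1) and the transition zone protein Dzip1l are mutated in recessive disease. Ganab encodes the catalytic subunit of glucosidase II, which trims glycans on proteins folding in the endoplasmic reticulum, Bicc1 encodes an RNA-binding protein whose loss gives cystic kidneys in mice, and Glis2 encodes a zinc finger transcription factor mutated in nephronophthisis.

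The samples were 42 poly-A RNA-seq libraries from C57BL/6 mice, 3 mice in each of 14 groups, in 3 cohorts. In the CaggCreERT2 cohort, a ubiquitous tamoxifen-inducible Cre was activated through tamoxifen given to the nursing mothers, and kidneys were taken at day 30 from control, Tsc2 KO (Tsc2 fl/fl), Tfeb KO (Tfeb fl/fl) and DKO (both genes floxed) mice. The labels call these controls wild type, and the study gives the sequenced ones as Cre-positive Tsc2 +/+ mice that also received tamoxifen. In the KspCre cohort, Cre under the Cadh16 promoter deleted the same genes in kidney epithelium, so that glomerular, vascular and interstitial cells kept them, and control, Tsc2 KO, Tfeb KO and DKO kidneys were taken at day 50. The labels call the KspCre controls wild type too, and the study gives the controls of its KspCre sequencing comparison as Cre-negative. It also describes Cre-negative mice as controls of the drug experiment, without stating this for the sequenced ones. In the drug cohort, KspCre control, Tsc2 KO and DKO mice received vehicle (named DMSO in the tables) or 1 mg/kg rapamycin, an inhibitor of mTORC1, in 11 intraperitoneal injections from day 25, and kidneys were taken at day 50.

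Libraries held 14926050 to 22807605 counted reads. Values are given as FPKM, in which fragments are divided by the length of the gene and by the reads of the library, so that levels can be compared between genes. Differences are log2 fold changes of the read counts by edgeR's quasi-likelihood test, and a gene was called at a Benjamini-Hochberg adjusted p of at most 0.05 over all genes tested. A set of 6 libraries stood apart by genes of the adrenal cortex (5 genes such as Star and Cyp11b1). Their summed level was 271 and 33.3 FPKM in Tfeb KO replicates 1 and 2 of the CaggCreERT2 cohort, 1323 and 50.8 in Tsc2 KO vehicle replicates 1 and 2, and 303 and 4259 in DKO vehicle replicates 1 and 2, against 0.740 to 2.33 elsewhere. Values without these libraries are given beside the calls of the 7 genes that used them, and beside only some calls of other genes. Each affected group then holds 1 library that is assumed to vary like the other groups. In the CaggCreERT2 cohort the level of Xist was that of males in all controls and of females in all Tfeb KO, 2 of 3 Tsc2 KO and 1 of 3 DKO libraries, and 4 of its 12 libraries were named differently in the counts and in the FPKM, 2 of them with another genotype. The naming of the FPKM columns was followed here. The library that only the counts name DKO had Tsc2, the deleted gene, at 10.2 FPKM, within the range of the other Tfeb KO and control libraries (9.05 to 10.6), and the one that only the counts name Tfeb KO had it at 5.26, within that of the other DKO libraries (4.82 and 5.64). Control and Tsc2 KO libraries carry the same names in both tables. In the KspCre cohort DKO replicate 1 had a summed level of 8 macrophage genes of 308 FPKM, against 42.6 and 63.7 in the other DKO libraries, and without it the comparisons with that group again called 0 of the 7 genes.

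In the controls the 7 genes covered a wide range of levels. In KspCre controls Ganab stood highest at a mean of 55.6 ± 2.38 FPKM (SD, n = 3), followed by Glis2 at 40.5 ± 5.90, Pkd2 at 26.8 ± 4.68 and Bicc1 at 21.7 ± 6.94, with Pkhd1 at 11.5 ± 2.20, Dzip1l at 3.75 ± 0.202 and Pkd1 at 2.61 ± 0.528. Libraries overlapped between Pkd2 and Bicc1 in the 3 untreated or vehicle control groups, between Glis2 and Ganab in the CaggCreERT2 cohort, between Glis2 and Pkd2 in the vehicle controls, and between Dzip1l and Pkd1 in both of these groups. No gene was at 0 in any library, and the lowest count was 276 reads, for Dzip1l. Between the group means the widest range was that of Bicc1 (2.99-fold), followed by Pkhd1 (2.31-fold), Glis2 (2.07-fold) and Dzip1l (2.01-fold), while Pkd1 (1.76-fold), Pkd2 (1.32-fold) and Ganab (1.26-fold) varied less.

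**Figure D1:**
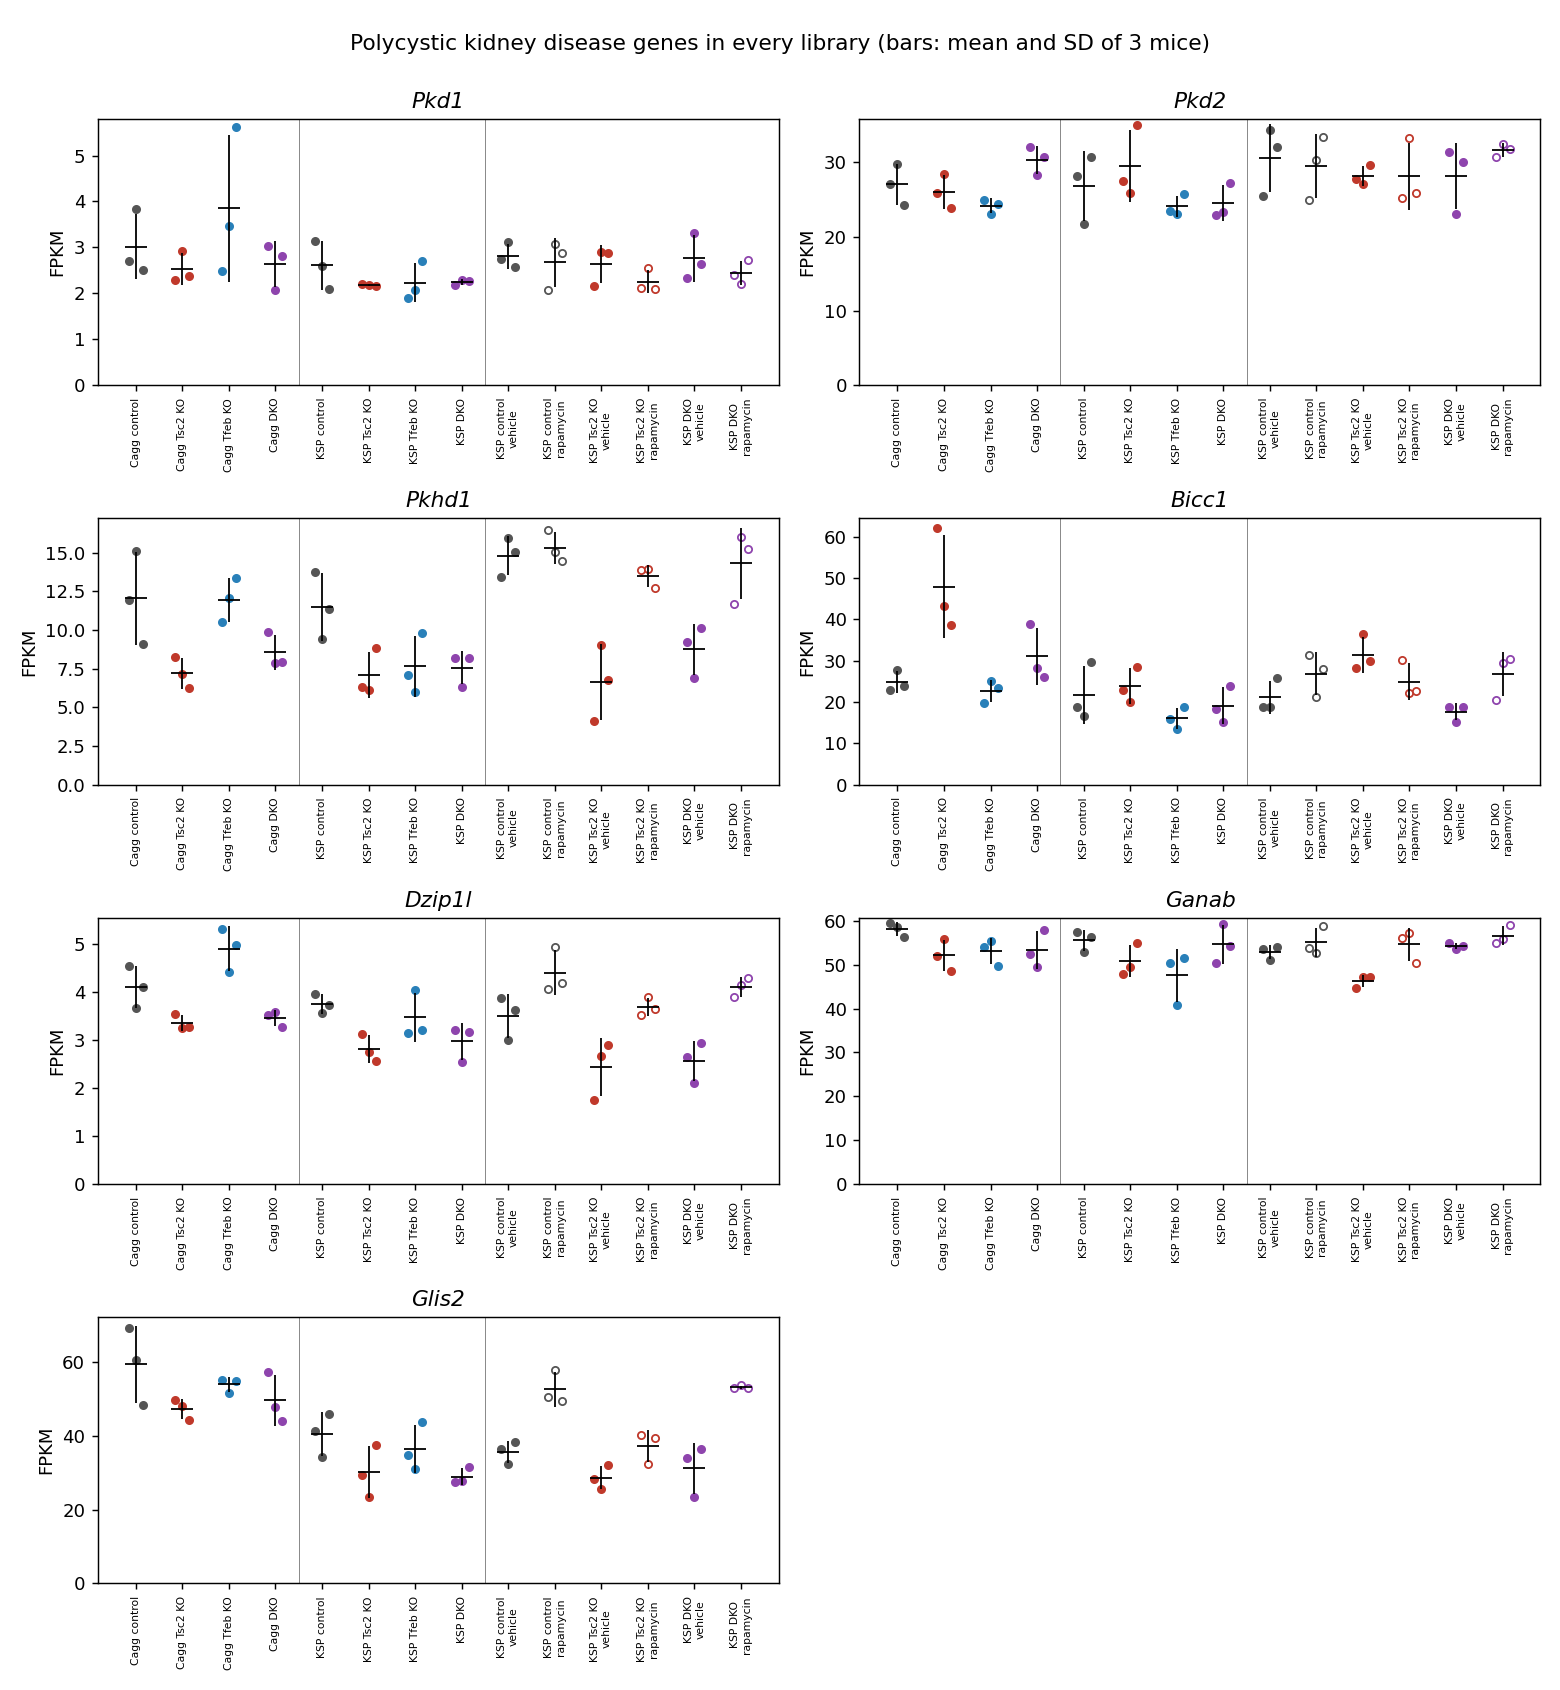
FPKM of the 7 genes in every library (points, 3 mice per group) with the group mean and SD (bars), open for rapamycin, by group along the horizontal axis and on a linear vertical axis that starts at 0. Pkhd1 lies lower in Tsc2 KO than in control libraries in each cohort and rises with rapamycin in Tsc2 KO, and Bicc1 is highest in Tsc2 KO libraries of the CaggCreERT2 cohort.

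Loss of Tsc2 was compared with control in each cohort. Among CaggCreERT2 mice 2 of the 7 genes were called, Bicc1 higher and Pkhd1 lower, where 29% of all genes tested were called. In the vehicle groups 3 were called, Bicc1 higher and Pkhd1 and Dzip1l lower, against 38.3% of all genes. In the untreated KspCre cohort 0 were called by edgeR against 13.8% of all genes, with 3 at an unadjusted p under 0.05 (Pkhd1, Dzip1l and Glis2, all lower) and 1 called by DESeq2. The shares called among the 7 genes are thus near those of the background. The median log2 fold change of the 7 genes was -0.19 in both the CaggCreERT2 and the vehicle comparison and -0.26 in the untreated KspCre comparison, beside 0.00, 0.01 and -0.01 over all genes tested.

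Removal of Tfeb in addition to Tsc2 was tested as DKO against Tsc2 KO. Bicc1 alone was called, lower in the vehicle groups, where 22% of all genes were called. In the CaggCreERT2 cohort 0 of 7 were called by edgeR against 9.92% of all genes, with 1 at an unadjusted p under 0.05 and 1 called by DESeq2 (Bicc1). In the untreated KspCre cohort 0 were called and 0 had an unadjusted p under 0.05, with 0 by DESeq2 and 0.144% of all genes called. Against control, Pkhd1 was called lower in vehicle DKO (1 of 7, background 6.01%), and 0 of 7 were called in DKO of the CaggCreERT2 cohort (background 10.2%, 1 at an unadjusted p under 0.05, 0 by DESeq2) or of the untreated KspCre cohort (background 3.1%, 3 and 0). Tfeb KO against control gave 0 of 7 in both cohorts by edgeR and by DESeq2, with 1 at an unadjusted p under 0.05 in each, and backgrounds of 0.0184% and 0%. Without the adrenal libraries the CaggCreERT2 comparison again gave 0 of 7 (background 0.00563%). The test of whether the effect of Tfeb differs with and without Tsc2 also gave 0 of 7 in both cohorts by either tool, with 1 at an unadjusted p under 0.05 in each, and backgrounds of 1.4% and 0%.

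Rapamycin raised 3 of the 7 genes in Tsc2 KO kidneys (Pkhd1, Dzip1l and Ganab, background 29.4%) and 2 in DKO kidneys (Dzip1l and Glis2, background 5.57%). In control kidneys 0 were called by edgeR or DESeq2, with 1 at an unadjusted p under 0.05 (Glis2), where 0.0294% of all genes were called. The response of Pkhd1 differed between Tsc2 KO and control (1 of 7, background 20.8%), and that of Bicc1 differed between DKO and Tsc2 KO (1 of 7, background 6.95%). Without the libraries that hold adrenal markers, the share of all genes called was lower in every comparison that used them. Among the 7, Pkhd1 alone was then called. This was so in the vehicle Tsc2 KO against control, in the rapamycin response of Tsc2 KO and in the difference of that response from control. In these 3 comparisons 18.5%, 11.4% and 8.56% of all genes were then called.

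**Figure D2:**
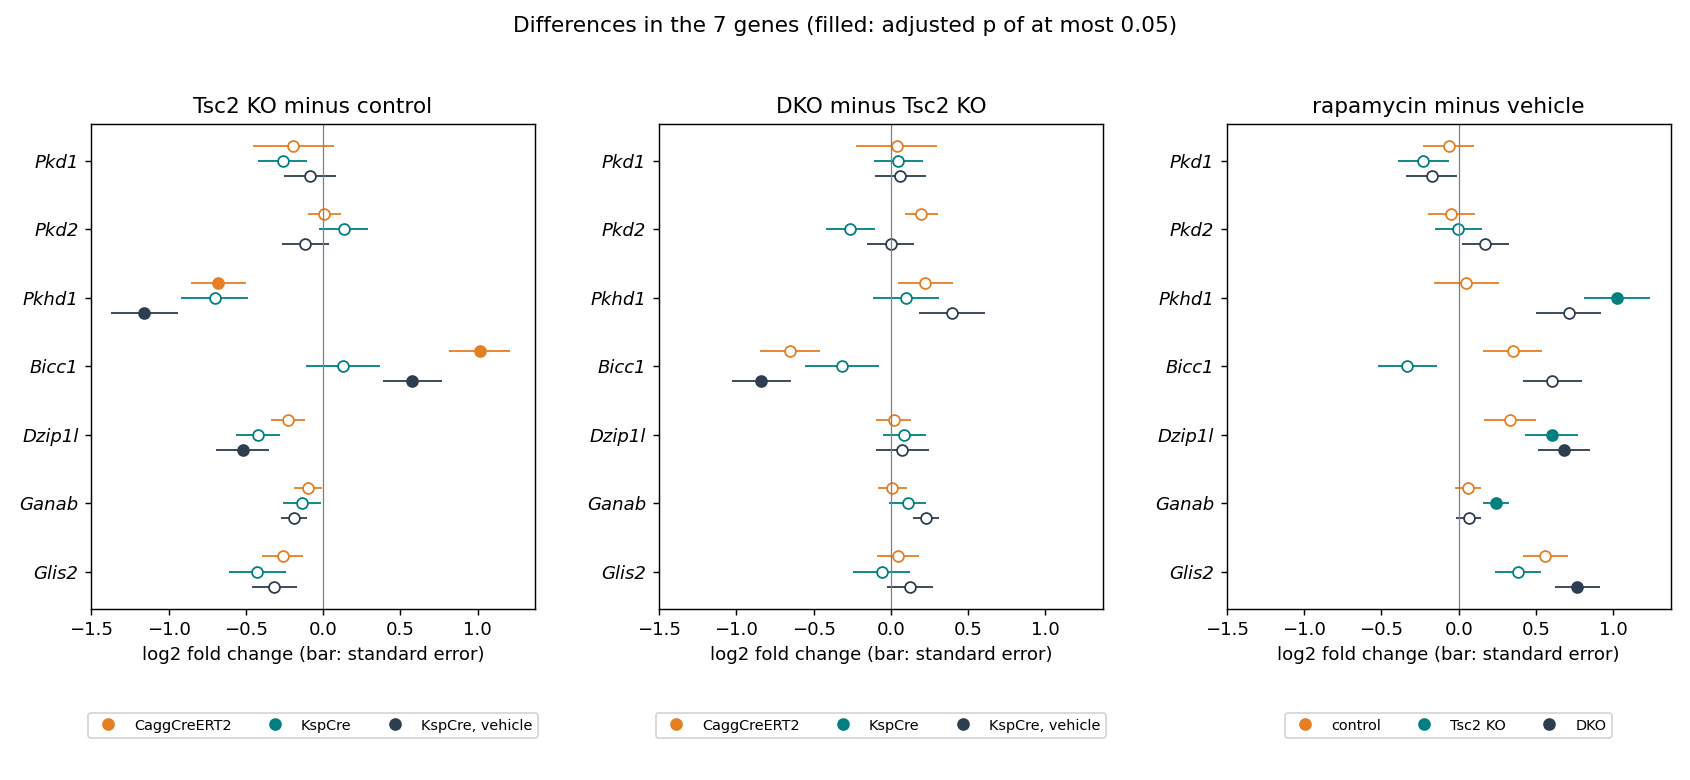
Log2 fold changes (horizontal axis) of the 7 genes with their standard errors (bars), for Tsc2 KO against control, DKO against Tsc2 KO, and rapamycin against vehicle, coloured by cohort or genotype. Filled points have an adjusted p of at most 0.05, and the Pkhd1 points lie left of 0 for Tsc2 KO against control in all 3 cohorts and right of 0 for rapamycin in Tsc2 KO and DKO.

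The polycystins were not called in any of the 14 comparisons between groups. Pkd1 (ENSMUSG00000032855, chromosome 17, 24549834-24596508, plus strand, mm10) had the lowest level of the 7 genes in each of the 3 untreated or vehicle control groups, at 2.70, 3.83 and 2.51 FPKM in the 3 CaggCreERT2 controls and 2.29, 2.92 and 2.38 in Tsc2 KO. In the KspCre cohort it was at 3.14, 2.602 and 2.09 in controls and 2.21, 2.18 and 2.15 in Tsc2 KO, and under vehicle at 2.74, 3.11 and 2.57 and 2.17, 2.90 and 2.87. Control and Tsc2 KO libraries overlapped in all 3 cohorts. Pkd1 log2 fold changes ran from -0.26 to 0.38 over the 14 comparisons, with a lowest adjusted p of 0.320, and its highest library was Tfeb KO replicate 3 of the CaggCreERT2 cohort at 5.61 FPKM, against 2.48 and 3.46 in the other Tfeb KO libraries. Pkd2 (ENSMUSG00000034462, chromosome 5, 104459450-104505819, plus strand) lay between 21.6 and 35.0 FPKM in all 42 libraries. Its log2 fold changes ran from -0.26 to 0.21, with a lowest adjusted p of 0.257.

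Pkd1 lies tail to tail with the deleted gene. Tsc2 (chromosome 17, 24595816-24632630, minus strand) shares its last 693 bases with the end of Pkd1, all of them exonic in both genes in GENCODE M21, or 3.98% of the exonic bases of Pkd1 and 7.20% of those of Tsc2. The libraries were not strand-specific, so reads from these bases cannot be told apart. The log2 fold change of Tsc2 itself in Tsc2 KO kidneys was -1.22, -1.196 and -1.202 in the CaggCreERT2, KspCre and vehicle cohorts (edgeR adjusted p = 4.82e-06, 0.000388 and 3.53e-07), from means of 10.3, 8.93 and 9.35 FPKM to 4.25, 3.91 and 4.06 FPKM. Tsc2 mRNA also moved between mutant groups of the drug cohort, at 4.47, 3.92 and 3.80 FPKM in vehicle Tsc2 KO, 5.55, 6.50 and 5.06 in rapamycin Tsc2 KO and 5.53, 6.41 and 6.29 in vehicle DKO. It was higher in vehicle DKO than in Tsc2 KO by 0.58 (adjusted p = 0.000843), or 0.73 (adjusted p = 0.0635) without the adrenal libraries. It rose with rapamycin in Tsc2 KO by 0.49 (adjusted p = 0.00199), or 0.59 (adjusted p = 0.0279) without them, and this response exceeded that of controls by 0.62 (adjusted p = 0.00728). The response of Tsc2 in DKO differed from that in Tsc2 KO by -0.54 (adjusted p = 0.0357), a call lost in 11 of 18 alternatives, including that without the adrenal libraries. The part of these shifts in the differences of the 7 genes was not tested. Tfeb fell in DKO against Tsc2 KO, at -1.48 (adjusted p = 0.00325) in the CaggCreERT2 cohort and -1.07 (adjusted p = 0.000668) under vehicle, the latter -1.12 (adjusted p = 0.139) without the adrenal libraries. In the untreated KspCre cohort it was -0.48 (adjusted p = 0.360). In Tfeb KO against control the differences in Tfeb were -0.80 (adjusted p = 0.394) in the CaggCreERT2 cohort and -0.33 (adjusted p = 0.627) in the KspCre cohort, so a fall of the targeted mRNA did not pass the test in either.

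Genes within 100 kb of Tsc2, counted without Tsc2 but with Pkd1, were called about as often as the background. Of 13 tested in the CaggCreERT2 cohort 3 rose and 2 fell, of 12 in the untreated KspCre cohort 1 rose and 1 fell, and of 13 under vehicle 3 rose and 1 fell, where 29%, 13.8% and 38.3% of all genes were called. Under vehicle 2 rose and 1 fell without the adrenal libraries. Traf7, a ubiquitin ligase, rose in all 3 cohorts, by 0.46, 0.35 and 0.77 on the log2 scale, although the KspCre call was lost with any 1 library left out, from 0.31 (adjusted p = 0.134) to 0.38 (adjusted p = 0.0804), without the filter on low counts, at 0.36 (adjusted p = 0.138), and with the replicate block, at 0.35 (adjusted p = 0.0612). Slc9a3r2, a PDZ scaffold protein, fell in all 3, at -0.68, -0.95 and -0.72. Its CaggCreERT2 call was lost without any 1 control or Tsc2 KO replicate 1, from -0.49 (adjusted p = 0.105) to -0.70 (adjusted p = 0.0551), and was -0.52 (adjusted p = 0.192) with Xist as a covariate and -0.68 (adjusted p = 0.105) under the names of the count table. Tbl3 and Zfp598 rose in the CaggCreERT2 and vehicle cohorts, Zfp598 at 0.41 (adjusted p = 0.0850) under vehicle without the adrenal libraries. With rapamycin in Tsc2 KO, Slc9a3r2 rose and Traf7, Tbl3 and Zfp598 fell, but without the adrenal libraries only Traf7 among them was called. The Slc9a3r2 response of 0.39 (adjusted p = 0.0357) was also not called with any 1 library left out, from 0.33 (adjusted p = 0.119) to 0.42 (adjusted p = 0.0557), or without the filter on low counts, at 0.38 (adjusted p = 0.0745). Those of Tbl3 and Zfp598 were not called with only the groups compared.

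**Figure D3:**
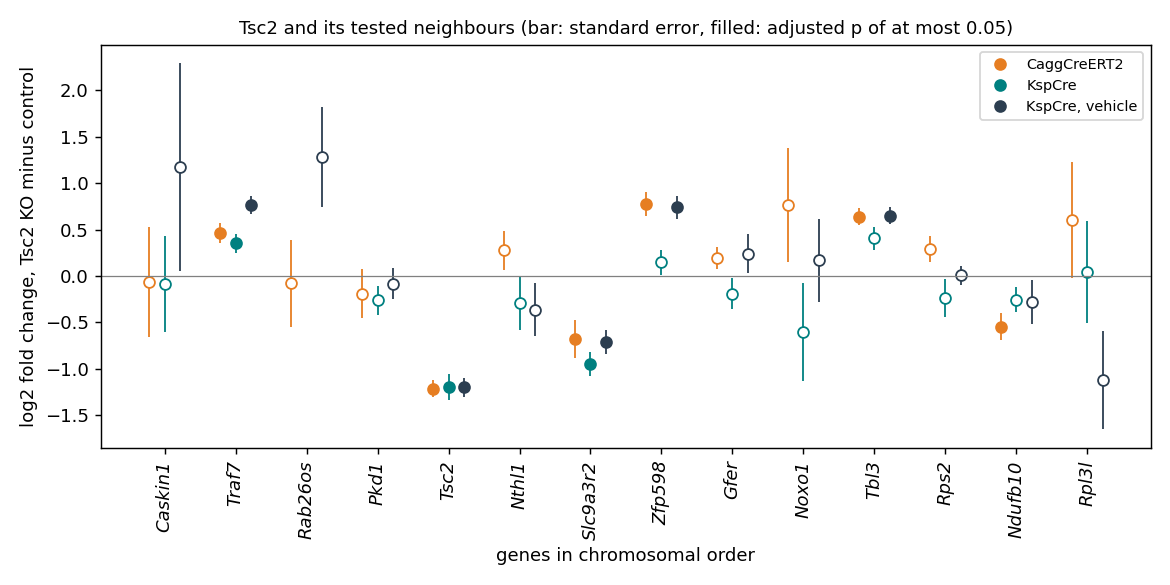
Log2 fold changes with standard errors (bars) of Tsc2 and the tested genes within 100 kb of it in Tsc2 KO against control (vertical axis), in chromosomal order (horizontal axis) and coloured by cohort, with filled points at an adjusted p of at most 0.05. Tsc2 lies near -1.2 in all 3 cohorts and Pkd1, next to it, lies between -0.26 and 0 with open points, while called genes are found on both sides of 0.

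Pkhd1 (ENSMUSG00000043760, chromosome 1, 20057779-20618064, minus strand), which encodes the ciliary and apical membrane protein fibrocystin, was the member called most often, in 4 of the 14 comparisons. The promoters of Pkhd1 and Dzip1l are shown because these genes fell together in vehicle Tsc2 KO and rose together with rapamycin in those mice. They are RefSeq sequences (GRCm38.p6) of the bases before the annotated start (for Dzip1l, the first of its listed starts), at chr1:20618065-20618307 on the minus strand and chr9:99629281-99629495 on the plus strand, less any bases within the gene of the tables. Capitals mark GTTAAT followed, after 1 base, by ATTAA, which is the paired motif of the HNF1 family of tubule transcription factors.
Pkhd1: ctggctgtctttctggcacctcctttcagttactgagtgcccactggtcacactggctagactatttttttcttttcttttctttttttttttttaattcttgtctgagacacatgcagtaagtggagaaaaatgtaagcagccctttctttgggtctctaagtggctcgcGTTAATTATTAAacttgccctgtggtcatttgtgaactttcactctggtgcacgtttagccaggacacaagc
Dzip1l: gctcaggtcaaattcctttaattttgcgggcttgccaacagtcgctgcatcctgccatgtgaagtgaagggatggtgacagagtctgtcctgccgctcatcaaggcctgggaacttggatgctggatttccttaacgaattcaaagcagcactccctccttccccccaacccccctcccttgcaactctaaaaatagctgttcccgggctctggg
Of the 7 genes, 5 had a promoter in the RefSeq table and Bicc1 and Glis2 did not. The 250 bases before the start were searched on both strands for this paired motif, for its first part GTTAAT, which any match to the paired motif also holds, and for CACGTG, the E-box bound by factors of the Tfeb family. Among the 5 genes, Pkhd1 held the paired motif, 68 to 79 bases before the start, as did 20 of 32851 promoters (0.0609%). GTTAAT was also found among them in Pkhd1 only, and in 6.43% of all promoters, and CACGTG in none of the 5 and in 6.02% of all.

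Among CaggCreERT2 mice Pkhd1 was at 11.9, 15.1 and 9.12 FPKM in controls and 8.24, 7.14 and 6.23 in Tsc2 KO. Every Tsc2 KO library was below every control, with means of 12.1 ± 3.01 and 7.21 ± 1.01 (SD, n = 3). The log2 fold change was -0.68 (SE 0.18, adjusted p = 0.0133). It was -0.48 (adjusted p = 0.0653) without control replicate 2, -0.65 (adjusted p = 0.0851) with Xist as a covariate and -0.68 (adjusted p = 0.0599) under the names of the count table.

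In the untreated KspCre cohort Pkhd1 was at 13.8, 9.39 and 11.4 FPKM in controls and 6.32, 6.11 and 8.82 in Tsc2 KO. The groups again did not overlap, but the log2 fold change of -0.70 (SE 0.22, adjusted p = 0.0508) just missed the threshold, and it was -0.89 (adjusted p = 0.0354) without Tsc2 KO replicate 3. It also passed by DESeq2, at -0.70 (adjusted p = 0.0177), with only the groups compared, at -0.71 (adjusted p = 0.0362), without the filter on low counts, at -0.70 (adjusted p = 0.0379), and with the replicate block, at -0.71 (adjusted p = 0.0161). The other 6 of 11 alternatives did not call it, with a smallest difference of -0.56 and an adjusted p of up to 0.174. Tfeb KO libraries were at 7.12, 6.01 and 9.83 FPKM and overlapped the controls, DKO libraries were at 8.18, 6.32 and 8.19, all below the controls, and neither group was called.

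The largest difference in Pkhd1 was in the drug cohort. Under vehicle it was at 13.5, 16.0 and 15.04 FPKM in controls and 4.14, 9.02 and 6.76 in Tsc2 KO, without overlap, a log2 fold change of -1.16 (SE 0.21, adjusted p = 0.000494). With rapamycin, Tsc2 KO libraries were at 13.9, 13.96 and 12.7, each above all vehicle Tsc2 KO libraries, a log2 fold change of 1.03 (SE 0.21, adjusted p = 0.00187). Control libraries with rapamycin were at 16.4, 15.1 and 14.4 and overlapped their vehicle group. The response in Tsc2 KO exceeded that in controls by 0.98 (SE 0.30, adjusted p = 0.0302). Without the libraries with adrenal markers these 3 values were -1.15 (adjusted p = 0.00125), 1.01 (adjusted p = 0.00441) and 0.97 (adjusted p = 0.0191). The last was no longer called when any 1 of 6 libraries was left out (control vehicle replicates 2 and 3, control rapamycin replicates 2 and 3, Tsc2 KO vehicle replicate 3 and Tsc2 KO rapamycin replicate 2), with values from 0.92 (adjusted p = 0.0672) to 0.98 (adjusted p = 0.0550).

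In vehicle DKO, Pkhd1 was at 9.23, 6.91 and 10.1 FPKM, above the lowest Tsc2 KO library but overlapping that group, and the difference from vehicle Tsc2 KO was 0.40 (adjusted p = 0.199). It was 0.67 (adjusted p = 0.0361) without Tsc2 KO vehicle replicate 2. The other 11 of 12 alternatives did not call this difference, with a lowest value of 0.15. All 3 DKO libraries were below the vehicle controls, at -0.76 (SE 0.21, adjusted p = 0.0455), but this call was lost when any 1 of the 6 libraries was left out, with values from -0.60 (adjusted p = 0.169) to -0.88 (adjusted p = 0.0538), and with the adrenal libraries left out, at -0.56 (adjusted p = 0.255). It was -0.76 (adjusted p = 0.0621) with only the groups compared and -0.75 (adjusted p = 0.0554) with the replicate block. With rapamycin, DKO libraries were at 11.7, 16.0 and 15.3, all above the vehicle DKO, and the difference of 0.71 (adjusted p = 0.0614) did not pass by edgeR. It passed by DESeq2, at 0.71 (adjusted p = 0.0180), and without the filter on low counts, at 0.71 (adjusted p = 0.0325).

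Dzip1l (ENSMUSG00000037784, chromosome 9, 99629496-99669256, plus strand) encodes a protein of the ciliary transition zone, the gate between cell body and cilium. It was lower in every Tsc2 KO library than in every control in all 3 cohorts. The share of all genes whose libraries separate in this way is not given here, for this or the other members. The values were 4.54, 3.68 and 4.11 FPKM in CaggCreERT2 controls and 3.55, 3.26 and 3.26 in Tsc2 KO. This difference of -0.23 (edgeR adjusted p = 0.147) was not called. In the untreated KspCre cohort they were 3.97, 3.57 and 3.72 and 3.13, 2.74 and 2.56, at -0.42 (adjusted p = 0.0688), and -0.43 (adjusted p = 0.0402) with only the groups compared. Under vehicle they were 3.88, 3.00 and 3.63 in controls and 1.75, 2.67 and 2.89 in Tsc2 KO, and here the difference passed at -0.52 (SE 0.17, adjusted p = 0.0229). Without control vehicle replicate 1, control vehicle replicate 3 or Tsc2 KO vehicle replicate 1 the vehicle difference was -0.45 (adjusted p = 0.0795), -0.50 (adjusted p = 0.0614) and -0.33 (adjusted p = 0.102), and without the adrenal libraries it was -0.29 (adjusted p = 0.292). With only the groups compared it was -0.56 (adjusted p = 0.0694).

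Rapamycin was followed by higher Dzip1l in both mutants. In Tsc2 KO the rapamycin libraries were at 3.53, 3.89 and 3.66 FPKM, all above vehicle, with a log2 fold change of 0.60 (SE 0.17, adjusted p = 0.0141). It was 0.41 (adjusted p = 0.0582) without Tsc2 KO vehicle replicate 1, 0.36 (adjusted p = 0.232) without the adrenal libraries and 0.63 (adjusted p = 0.0527) with only the groups compared. In DKO Dzip1l was at 2.65, 2.11 and 2.94 under vehicle and 3.89, 4.15 and 4.29 with rapamycin, again without overlap, at 0.68 (SE 0.17, adjusted p = 0.0289). Leaving out vehicle replicate 1 or 2 or any rapamycin replicate ended this call, with values from 0.55 (adjusted p = 0.102) to 0.72 (adjusted p = 0.0578), and it was 0.48 (adjusted p = 0.308) without the adrenal libraries. Controls were at 4.08, 4.95 and 4.20 with rapamycin, all above their vehicle group, and were not called. The response in Tsc2 KO differed from that in controls by 0.27 (edgeR adjusted p = 0.458). That in DKO differed from that in Tsc2 KO by 0.08 (edgeR adjusted p = 0.892), so a difference in response between genotypes was not shown.

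Ganab (ENSMUSG00000071650, chromosome 19, 8898090-8916663, plus strand) was the most even of the 7 genes by its range of group means, with all libraries between 40.7 and 59.6 FPKM and a median CV within groups of 5.77%. Under vehicle it was at 53.6, 51.1 and 54.0 FPKM in controls and 44.7, 47.2 and 47.1 in Tsc2 KO, each Tsc2 KO library below each control, at -0.19 (adjusted p = 0.0831). DKO vehicle libraries were at 54.9, 53.7 and 54.4, all above Tsc2 KO, at 0.23 (adjusted p = 0.0618). Neither difference passed by edgeR, and both were called by DESeq2, at -0.19 (adjusted p = 0.0267) and 0.23 (adjusted p = 0.00930). With rapamycin Tsc2 KO libraries were at 56.2, 57.3 and 50.4, all above vehicle, and this difference of 0.24 (SE 0.08, adjusted p = 0.0397) was called. The call ended when any 1 vehicle library or rapamycin replicate 1 or 2 was left out, with values from 0.20 (adjusted p = 0.115) to 0.24 (adjusted p = 0.0756), and without the adrenal libraries it was 0.22 (adjusted p = 0.314). It was 0.27 (adjusted p = 0.174) with only the groups compared and 0.24 (adjusted p = 0.239) without the filter on low counts.

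Bicc1 (ENSMUSG00000014329, chromosome 10, 70922832-71159700, minus strand) encodes a protein that binds and silences messenger RNAs. It was called higher in the Tsc2 KO comparisons that called Pkhd1 lower, those of the CaggCreERT2 and the vehicle groups. With CaggCreERT2 it was at 22.9, 27.8 and 23.9 FPKM in controls and 62.1, 43.3 and 38.5 in Tsc2 KO, with every Tsc2 KO library above every control and the highest in replicate 1. The log2 fold change was 1.01 (SE 0.20, adjusted p = 0.00229), and it stayed called in all 13 alternatives, at 0.77 to 1.16. In DKO the libraries were at 38.9, 28.2 and 26.1, with replicate 1 overlapping Tsc2 KO, and the difference from Tsc2 KO of -0.65 (adjusted p = 0.0528) did not pass. It was -0.80 (adjusted p = 0.0205) without Tsc2 KO replicate 3 and -0.85 (adjusted p = 0.0323) without DKO replicate 1. It also passed by DESeq2, at -0.66 (adjusted p = 0.0123), and without the filter on low counts, at -0.66 (adjusted p = 0.00201). Under the names of the count table it passed at -0.91 (adjusted p = 0.0463). The other 8 of 13 alternatives did not call it, and the smallest difference was -0.41.

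Under vehicle Bicc1 was highest in Tsc2 KO among the 3 genotypes of the drug cohort, and DKO libraries had a lower mean than controls. It was at 18.9, 18.9 and 25.8 FPKM in controls, 28.2, 36.4 and 29.9 in Tsc2 KO and 18.7, 15.2 and 18.9 in DKO, with all Tsc2 KO libraries above both other groups. Tsc2 KO exceeded control by 0.58 (SE 0.19, adjusted p = 0.0250). This was 0.49 (adjusted p = 0.0909), 0.50 (adjusted p = 0.0932) and 0.47 (adjusted p = 0.0973) without control vehicle replicate 1, control vehicle replicate 2 or Tsc2 KO vehicle replicate 2, and 0.48 (adjusted p = 0.244) without the adrenal libraries. DKO against Tsc2 KO was -0.84 (SE 0.19, adjusted p = 0.00481), which held with any 1 library left out and became -0.65 (adjusted p = 0.422) without the adrenal libraries. In the untreated KspCre cohort, by contrast, Bicc1 was at 18.8, 16.7 and 29.6 in controls, 23.0, 20.0 and 28.5 in Tsc2 KO and 18.2, 15.1 and 23.9 in DKO, and these groups overlapped.

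The response of Bicc1 to rapamycin differed between DKO and Tsc2 KO. Tsc2 KO libraries were at 30.2, 22.1 and 22.7 FPKM with rapamycin, overlapping vehicle, and DKO libraries at 20.6, 29.5 and 30.3, all above vehicle, at 0.61 (adjusted p = 0.0739). The DKO value passed by DESeq2, at 0.60 (adjusted p = 0.0307), and without DKO rapamycin replicate 1, at 0.76 (adjusted p = 0.0457). The response of Bicc1 in DKO exceeded that in Tsc2 KO by 0.94 (SE 0.27, adjusted p = 0.0459). It was no longer called with any 1 of 9 of its 12 libraries left out (all DKO vehicle libraries and replicates 2 and 3 of the other 3 groups), with values from 0.83 (adjusted p = 0.112) to 0.99 (adjusted p = 0.0726), and without the adrenal libraries it was 0.76 (adjusted p = 0.515). With only the groups compared it was 0.95 (adjusted p = 0.0558), and with the replicate block 0.95 (adjusted p = 0.0575).

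Glis2 (ENSMUSG00000014303, chromosome 16, 4594713-4624924, plus strand) was called in 1 comparison, with rapamycin in DKO. The DKO libraries were at 33.9, 23.4 and 36.3 FPKM under vehicle, with replicate 2 lowest, and at 53.0, 53.6 and 52.8 with rapamycin, without overlap, a log2 fold change of 0.77 (SE 0.15, adjusted p = 0.00753). It kept its call with any 1 library left out and was 0.55 (adjusted p = 0.192) without the adrenal libraries. Rapamycin libraries were also above all vehicle libraries in controls, at 50.4, 57.9 and 49.3 against 36.4, 32.4 and 38.2, and in Tsc2 KO, at 40.1, 32.3 and 39.4 against 28.3, 25.7 and 32.0. Neither was called, the first at 0.56 (adjusted p = 0.318) and the second at 0.38 (adjusted p = 0.0611). The second was 0.48 (adjusted p = 0.0401) without rapamycin replicate 2, 0.38 (adjusted p = 0.0459) by DESeq2 and 0.38 (adjusted p = 0.0467) with the replicate block. It was not called in the other 9 of 12 alternatives, with a lowest value of 0.23. With loss of Tsc2, Glis2 was at 69.2, 60.5 and 48.4 in CaggCreERT2 controls and 49.7, 48.0 and 44.3 in Tsc2 KO, and at 41.2, 34.2 and 46.0 and 29.4, 23.5 and 37.6 in the untreated KspCre cohort, at -0.43 (adjusted p = 0.161), or -0.44 (adjusted p = 0.0370) with the replicate block. The groups overlapped in both of these cohorts, and 10 of 11 alternatives left the KspCre difference uncalled, at -0.28 to -0.61. Under vehicle all Tsc2 KO libraries were below all controls, and the difference of -0.32 (adjusted p = 0.102) did not pass.

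The kidney's cell markers moved in the same comparisons. Whole kidneys were measured, so fewer cells of a type and less RNA per cell cannot be told apart. Of 8 proximal tubule markers, 7, 5 and 6 fell in Tsc2 KO in the CaggCreERT2, KspCre and vehicle cohorts and 0 rose, and 7 rose with rapamycin in Tsc2 KO. Their summed level was 1786 to 2090.4 FPKM in vehicle controls, 399 to 634 in vehicle Tsc2 KO, 1654 to 2085 in rapamycin Tsc2 KO and 1061 to 1898 in vehicle DKO. In the CaggCreERT2 cohort it was 1985 to 2216 in controls and 451 to 968 in Tsc2 KO, and in the untreated KspCre cohort 1804 to 2125 and 762 to 1479. Of 6 markers of the thick limb and distal convoluted tubule, 5, 3 and 5 fell in Tsc2 KO and 0 rose, and 5 rose with rapamycin in Tsc2 KO. Their summed level was lower in Tsc2 KO of the CaggCreERT2 cohort, at 1329.5 to 1621 FPKM in controls and 789 to 930.4 in Tsc2 KO. It was higher in every Tsc2 KO library than in every control of the untreated KspCre cohort, at 1546 to 1724 and 2034 to 2226. Under vehicle the sums were 1331 to 1829.6 and 1052 to 1967, with 2 of the 3 Tsc2 KO libraries above all controls. Proliferation genes rose in Tsc2 KO (2, 5 and 5 of 5), with sums under vehicle of 0.850 to 1.44 FPKM in controls and 7.58 to 24.4 in Tsc2 KO, and all 5 fell with rapamycin.

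The remaining lists were counted in the same comparisons. All 4 podocyte markers fell in Tsc2 KO in the CaggCreERT2 and KspCre cohorts and 3 under vehicle, where their sum was 92.3 to 122 FPKM in controls and 24.0 to 31.4 in Tsc2 KO. Of 8 macrophage markers 3, 0 and 7 rose and 0, 0 and 1 fell, with sums under vehicle of 37.5 to 45.9 and 66.4 to 123. Of 7 fibroblast markers 0, 0 and 3 rose, with sums of 20.9 to 46.1 and 29.8 to 85.04, and of 5 endothelial markers 0, 4 and 2 fell, with sums of 45.5 to 57.0 and 28.9 to 31.7. Of 9 collecting duct markers, 8 of them tested, 0, 2 and 3 rose and 4, 3 and 2 fell, with sums of 317 to 413 and 515 to 609. In the comparisons that called Pkhd1, Bicc1, Dzip1l and Glis2 in DKO, markers moved as well. In vehicle DKO against control 2 proximal tubule markers and 1 macrophage marker fell, 2 collecting duct markers rose, 1 thick limb marker rose and 1 fell, and 0 of the other lists were called apart from 3 adrenal markers that rose. In vehicle DKO against Tsc2 KO 6 proximal tubule, 5 thick limb, 3 podocyte and 2 endothelial markers rose, 5 proliferation, 4 macrophage and 1 fibroblast markers fell, and 3 collecting duct markers rose and 3 fell. With rapamycin in DKO 2 thick limb markers rose, 2 macrophage markers fell and 1 rose, 1 collecting duct marker rose and 1 fell, and 0 of the other lists were called apart from the adrenal markers.

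Without the adrenal libraries the marker counts for vehicle Tsc2 KO against control were 7 proximal tubule, 5 thick limb, 3 podocyte and 2 endothelial markers lower, and 5 proliferation and 3 fibroblast markers higher. There 4 macrophage markers rose and 1 fell, 3 collecting duct markers rose and 2 fell, and 1 thick limb marker rose. For rapamycin in Tsc2 KO, 6 proximal tubule, 5 thick limb and 2 podocyte markers rose, 5 proliferation, 2 macrophage and 1 fibroblast markers fell, and 1 collecting duct marker rose and 2 fell. In vehicle DKO against Tsc2 KO 6 proximal tubule, 2 thick limb and 1 collecting duct markers rose and 0 of the others were called, and with rapamycin in DKO 0 were called. In vehicle DKO against control 1 thick limb marker rose and 0 of the others were called. Among the defining markers of the kidney's own cell types, Avpr2 of the collecting duct list was at 0 in all vehicle DKO libraries. Only 8 of the 9 genes of that list passed the filter on low counts. Levels of Avpr2 in other groups are not given here, and its absence is not read as a difference between groups. The part of these cell types in the differences of the 7 genes was not tested.

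**Figure D4:**
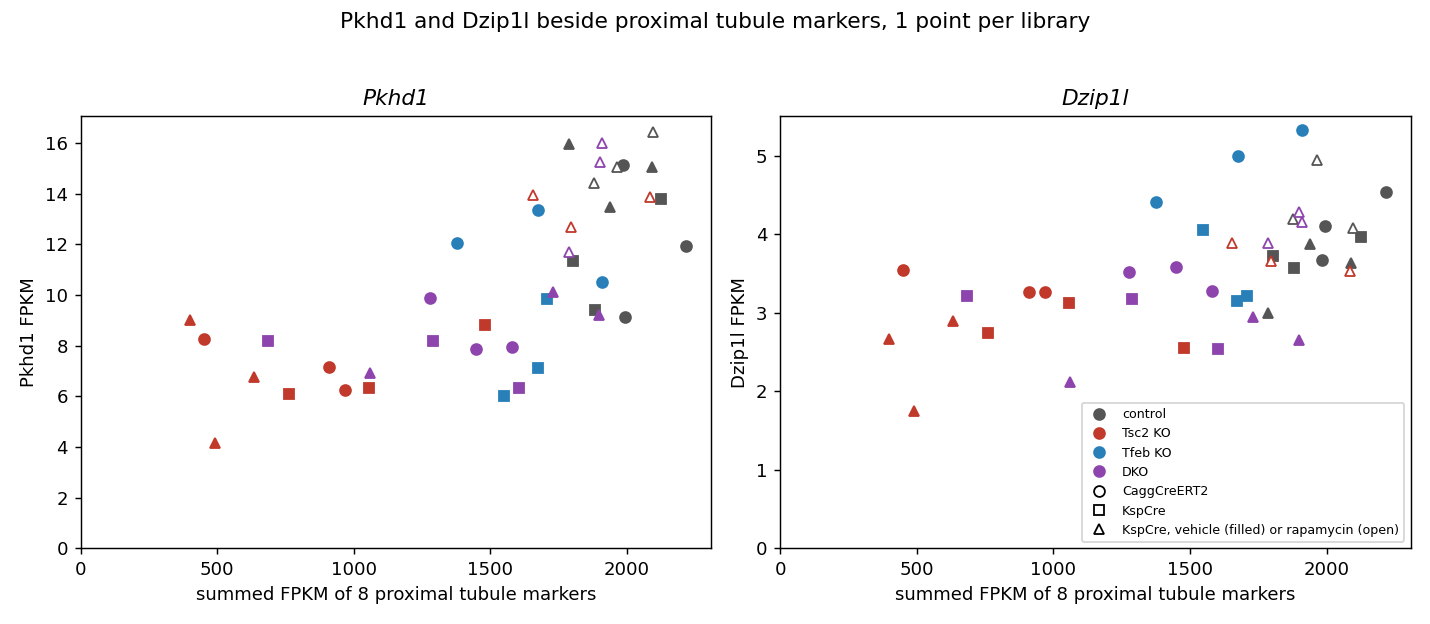
FPKM of Pkhd1 and Dzip1l (vertical axes) against the summed FPKM of 8 proximal tubule markers (horizontal axis) in the 42 libraries, with colour for genotype and shape for cohort, and open triangles for rapamycin. Vehicle Tsc2 KO libraries lie at the left with a marker sum of 399 to 634, and their rapamycin counterparts lie at 1654 to 2085.

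Other genes of cystic kidney disease were counted from lists of 77 genes, 74 of them tested. In Tsc2 KO against control 11 rose and 10 fell in the CaggCreERT2 cohort (28.4% of those tested), 4 rose and 1 fell in the untreated KspCre cohort (6.76%) and 13 rose and 8 fell under vehicle (28.4%), which is at or below the backgrounds given above. Under vehicle 8 rose and 3 fell without the adrenal libraries, where 18.5% of all genes were called. Among the 9 genes of protein folding and glycosylation in the endoplasmic reticulum, the compartment in which Ganab acts, 3, 0 and 3 rose and 0 fell. They included Sec61a1, a subunit of the translocation channel, at 0.62 and 0.45, and the chaperone Dnajb11 at 0.42 and 0.48, the former 0.42 (adjusted p = 0.0932) under the names of the count table. Alg5 rose too, at 0.38 in the CaggCreERT2 cohort and 0.40 under vehicle, calls lost in 6 of 13 and 6 of 12 alternatives. Of 3 polycystin relatives tested of 6, Pkdrej rose in all 3 cohorts, by 3.87, 2.02 and 2.24 on the log2 scale, at group means of at most 0.341 FPKM. Without the adrenal libraries the vehicle value was 2.32 (adjusted p = 0.0508), which did not pass. The KspCre call of Pkdrej was lost without any 1 library other than Tsc2 KO replicate 3, from 1.71 (adjusted p = 0.0816) to 2.10 (adjusted p = 0.0578).

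Among 20 nephronophthisis genes, the group to which Glis2 belongs, 3, 1 and 3 rose and 2, 0 and 1 fell. Fewer of them rose under vehicle without the adrenal libraries. Dcdc2a, a microtubule-binding protein of the cilium, rose by 2.40 in the CaggCreERT2 cohort and 1.59 under vehicle, and fell in DKO against Tsc2 KO, at -1.66 and -2.15. Without the adrenal libraries the vehicle values of Dcdc2a were 1.07 (adjusted p = 0.125) and -1.86 (adjusted p = 0.149). Cep83, a centriolar protein that anchors the cilium, rose in all 3 cohorts, but was at 0.57 (adjusted p = 0.0754) in the CaggCreERT2 cohort under the names of the count table, 0.48 (adjusted p = 0.0563) in the KspCre cohort without Tsc2 KO replicate 3 and 0.51 (adjusted p = 0.0672) under vehicle without the adrenal libraries. Invs, which encodes inversin, fell in the CaggCreERT2 and vehicle cohorts at -0.43 and -0.81, the former lost without control replicate 1 or 2 or Tsc2 KO replicate 1 or 3, from -0.38 (adjusted p = 0.106) to -0.40 (adjusted p = 0.0695). The CaggCreERT2 value of Invs was also not called with only the groups compared, at -0.45 (adjusted p = 0.0589), without the filter on low counts, at -0.44 (adjusted p = 0.106), with Xist as a covariate, at -0.30 (adjusted p = 0.245), or under the names of the count table, at -0.43 (adjusted p = 0.0558).

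Of 11 transition zone genes, the compartment of Dzip1l, 1, 0 and 1 rose and 2, 0 and 0 fell. Of 19 intraflagellar transport genes, which build the cilium, 2, 1 and 3 rose and 4, 1 and 5 fell. Under vehicle, fewer genes of both lists were called without the adrenal libraries. Ift122 fell in all 3 cohorts, at -0.52, -0.42 and -0.65, and rose with rapamycin in Tsc2 KO at 0.72. Its KspCre call was lost with any 1 library left out, from -0.38 (adjusted p = 0.134) to -0.49 (adjusted p = 0.0602), and was -0.42 (adjusted p = 0.103) without the filter on low counts. The kinesin subunit Kif3b rose by 0.81 and 0.74 in the CaggCreERT2 and vehicle cohorts. Of 12 other cystic kidney genes 1, 1 and 2 rose and 2, 0 and 2 fell, and Tsc1, the partner of Tsc2 in its complex, rose by 0.70, 0.63 and 0.46. The KspCre call of Tsc1 was lost without control replicate 2 or Tsc2 KO replicate 3, at 0.55 (adjusted p = 0.0573) and 0.53 (adjusted p = 0.0511), and the vehicle call without control replicate 1 or 3 or Tsc2 KO replicate 2 or 3, from 0.39 (adjusted p = 0.0998) to 0.48 (adjusted p = 0.0565).

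In DKO against Tsc2 KO, 1 of the 74 genes rose and 5 fell in the CaggCreERT2 cohort (8.11%, background 9.92%), 0 rose and 0 fell in the untreated KspCre cohort (background 0.144%), and 2 rose and 9 fell under vehicle (14.9%, background 22%). With rapamycin 8 rose and 10 fell in Tsc2 KO (24.3%, background 29.4%), 0 rose and 0 fell in controls (background 0.0294%), and 0 rose and 1 fell in DKO (1.35%, background 5.57%). These shares are all at or below the background. Without the adrenal libraries 0 were called in vehicle DKO against Tsc2 KO (background 2.42%) or with rapamycin in DKO (background 0.805%), and with rapamycin in Tsc2 KO 3 rose and 2 fell (background 11.4%).

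Among 10446 protein-coding genes compared over the 42 libraries, with log2(FPKM + 1) centred on the mean of each cohort, the pattern most like that of Pkhd1 was that of Tanc1 (Pearson r = 0.901), and the next was that of Myo6 (r = 0.879). For Bicc1 these were Coro1c (0.863) and Actn4 (0.850), both actin-binding proteins. For Dzip1l they were Pfas (0.846) and BC035947 (0.844), for Ganab Mlec (0.839) and Nbas (0.801), and for Glis2 Flrt1 (0.826) and Lzts3 (0.792). The polycystins had lower highest values, with Mycbp2 (0.772) and Tnxb (0.733) for Pkd1 and Atp13a3 (0.726) and Atp11b (0.692) for Pkd2. Among the 7 genes, r was 0.756 between Pkhd1 and Dzip1l, 0.718 between Dzip1l and Glis2, 0.715 between Pkhd1 and Glis2, -0.05 between Pkhd1 and Bicc1 and 0.026 between Pkd1 and Pkd2. These are descriptions over libraries that share genotype, treatment and tissue composition.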

How the data were processed

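Poly-A RNA-seq libraries of whole mouse kidneys, made with a kit that does not mark strand, were analysed from tables of gene counts and FPKM. The deposited counts are raw reads per gene, and the deposited FPKM were computed by the authors from these counts and gene lengths. The submitters' processing notes name STAR 2.6.1d, HISAT2 2.0.5, featureCounts 1.5.0-p3, DESeq2 1.20.0 and build mm10, with no role or order, and the reads were counted on 54532 genes. Count and FPKM columns were joined by the constant ratio of their values over genes (CV of at most 2.4e-10, against at least 0.196 for any other column). Names agreed except for 4 of 12 CaggCreERT2 libraries, for which those of the FPKM table were used.

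Counts of each cohort (16348, 16631 and 17027 genes after edgeR's filter) were fitted over all groups with edgeR 4.0.16 (R 4.3.3, limma 3.58.1, TMM, quasi-likelihood test) and p-values adjusted by Benjamini-Hochberg over all genes tested. The scripts were tested on simulated data. P-values rest on the spread between mice within groups of 3, estimated jointly over all groups of a cohort. Alternatives were DESeq2 1.42.0, RLE normalization, no filter, a mean FPKM of at least 5, only the groups compared, Xist as a covariate, the other table's names, a replicate block and each library left out. The alternative without libraries that hold adrenal markers (a summed FPKM of at least 10) was chosen after seeing the data. Samples with the same replicate number deviated together in every pair only for untreated KspCre DKO and Tsc2 KO (r = 0.239, 0.246 and 0.189), where the replicate block gave 0 members called, as without it. Nothing in the labels ties these numbers to a litter or a day.

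The 7 genes and all gene lists were chosen with earlier results of these data known. Named genes are the 7, Tsc2 and Tfeb, genes within 100 kb of Tsc2, up to 3 genes of a list called the same way in at least 2 cohorts, and the 2 genes most like each of the 7 in pattern (pseudocount 1, mean FPKM of at least 1).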

Additional observations from a re-analysis of the deposited data

Results flagged for a closer look

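The response of Pkhd1 to rapamycin differed between Tsc2 KO and control kidneys of the drug cohort, by 0.98 on the log2 scale in a test of the difference itself (edgeR quasi-likelihood test, adjusted p = 0.0302). All 3 Tsc2 KO libraries with rapamycin (12.7 to 13.96 FPKM) were above all vehicle libraries (4.14 to 9.02 FPKM), while in controls the ranges overlapped (14.4 to 16.4 and 13.5 to 16.0 FPKM). The call was lost in 6 of 18 alternatives, each with 1 library left out, at an adjusted p of up to 0.0754.

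The response of Bicc1 differed between DKO and Tsc2 KO kidneys, by 0.94 (adjusted p = 0.0459). This call was lost in 12 of 18 alternatives, with any 1 of 9 libraries left out, with only the groups compared, with the replicate block, and without the adrenal libraries, at 0.76 (adjusted p = 0.515). DKO libraries ranged over 15.2 to 18.9 FPKM under vehicle and 20.6 to 30.3 FPKM with rapamycin, and Tsc2 KO libraries over 28.2 to 36.4 and 22.1 to 30.2 FPKM. Single outlying samples were not tested for in these groups of 3 mice.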

How the results depend on the processing

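Counts of the 7 members called moved by over 1.5 times as follows. With Xist as a covariate or the names of the count table, CaggCreERT2 Tsc2 KO against control gave 1 in place of 2. For CaggCreERT2 DKO against Tsc2 KO, DESeq2, no filter on low counts and the names of the count table each gave 1 in place of 0, and no filter also gave 1 in place of 0 for DKO against control. In untreated KspCre Tsc2 KO against control, 0 became 1 with DESeq2 and without the filter, and 2 with only the groups compared and with the replicate block. In the drug cohort DESeq2 gave 2 in place of 1 for vehicle DKO against Tsc2 KO and 4 in place of 2 for rapamycin in DKO, where the FPKM minimum gave 1. With only the groups compared, rapamycin in Tsc2 KO gave 1 in place of 3, and vehicle DKO against control and the difference of responses between DKO and Tsc2 KO each gave 0 in place of 1, as they did with the replicate block. Leaving out the adrenal libraries gave 1 in place of 3 for vehicle Tsc2 KO against control and for rapamycin in Tsc2 KO, 0 in place of 2 for rapamycin in DKO, and 0 in place of 1 for vehicle DKO against Tsc2 KO, vehicle DKO against control and the difference of responses between DKO and Tsc2 KO. Smaller moves from 3 were to 4 with DESeq2 and 2 with the FPKM minimum for vehicle Tsc2 KO against control and for rapamycin in Tsc2 KO, to 2 for the former with only the groups compared (Dzip1l lost), and to 2 without the filter (Ganab lost) and 4 with the replicate block (Glis2 gained) for the latter, and rapamycin in DKO gave 3 in place of 2 without the filter (Pkhd1 gained). With each library left out in turn, the count of members ran from 1 to 2 for CaggCreERT2 Tsc2 KO against control, 0 to 1 for its DKO against Tsc2 KO and against control, 0 to 1 for KspCre Tsc2 KO against control, 1 to 3 for vehicle Tsc2 KO against control, 1 to 2 for vehicle DKO against Tsc2 KO, 0 to 0 for vehicle DKO against control, 1 to 3 and 1 to 2 for rapamycin in Tsc2 KO and DKO, 0 to 2 for the difference of responses between Tsc2 KO and control, 0 to 1 for that between DKO and Tsc2 KO, and stayed at 0 elsewhere. Of 126 pairs of member and comparison, 14 were called and 0 of these changed sign in any alternative, whereas 37 of the 112 not called did and 12 of them passed in some alternative. The calls kept in every alternative other than that without the adrenal libraries were Bicc1 in CaggCreERT2 Tsc2 KO, Pkhd1 in vehicle Tsc2 KO and with rapamycin in Tsc2 KO, Bicc1 in vehicle DKO against Tsc2 KO and Glis2 with rapamycin in DKO. The cause of each move was not tested. Outside the pair of groups named in the methods, replicate numbers only name mice. The mean levels of Pkd1 and Dzip1l were under 5 FPKM in all 14 groups, and the number of 3 mice per group limits every comparison.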
